A study of Homo sapiens with 4 samples.

Results

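The response of MDA-MB-435 melanoma cells to CPYPP was examined gene by gene in 2 of the series' 4 libraries, 1 from control cells and 1 from cells given 10 µM CPYPP for 6 h. CPYPP is a small molecule known as an inhibitor of DOCK proteins, which load the small GTPase Rac1, and the study asked which genes respond while it drives paraptosis, a non-apoptotic death with large cytoplasmic vacuoles. The cells were wild type, grown in DMEM/F12 with serum, and the labels give the control no agent. The other 2 libraries came from MDA-MB-231 breast cancer cells, again with and without CPYPP. Genes were included when they had 10 or more counts in at least 1 of the 2 MDA-MB-435 libraries, which held for 16527 of the 61806 genes in the table. A narrower set of 11177 genes had 100 or more counts in at least 1 of the libraries.

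The control library held 22663954 counts and the CPYPP library 19489282. With 1 library per condition there was no replicate check, so the test compared these libraries and not the conditions, and every interval covers counting error only. Counts were scaled by edgeR's TMM method. A gene was called, that is, said to have risen or fallen, when an exact binomial test on its reads gave a Benjamini-Hochberg adjusted p under 0.05 over all tested genes and the fold change was over 2. All folds below carry 95% Clopper-Pearson intervals where an interval is printed.

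The libraries carried part of a melanocyte profile. SOX10, the transcription factor of the neural crest lineage, had 3031 counts in control cells, MITF, the master factor of pigment cells, 1405, PAX3 1040, S100B 1055 and DCT, a pigment enzyme, 658. The MDA-MB-231 control had more MITF counts, 1585, but 0 of SOX10, PAX3 and S100B and 1 of DCT. The pigment genes PMEL, MLANA, TYR and TYRP1 were near 0, with 13, 9, 2 and 10 counts. Of the epithelial markers, KRT18 had 5740 counts, KRT7 625, KRT8 522 and GATA3 187, while CDH1 had 0 and EPCAM 2. The 9 melanocyte markers summed to 302.7 and the 11 epithelial markers to 299.97 CPM (counts per 1000000 counts) in control cells, and to 202.2 and 265 CPM after CPYPP. The 8 immune markers summed to 1.51 CPM in control cells and 2.05 CPM after CPYPP, the 7 fibroblast markers to 4.65 and 2.54, and the 4 endothelial markers to 2.10 and 0.382. In bulk RNA, fewer cells of a type and less RNA per cell cannot be told apart.

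Cells that accumulate misfolded or oxidised protein are known to answer through a few transcription factors. Heat shock factor 1 raises chaperones through heat shock elements. NRF2, freed from KEAP1 by electrophiles, raises glutathione and thioredoxin enzymes through antioxidant response elements. ATF4, translated when eIF2α is phosphorylated in the integrated stress response, raises amino acid transport and synthesis genes through C/EBP-ATF response elements. Promoter sequences of 5 genes that rose are shown here because each holds at least 1 of these elements. They are 120-base stretches of RefSeq promoters in GRCh38.p14, read 5′ to 3′ on the gene's strand, with the element in capitals (in CHORDC1, 3 overlapping 3-unit elements), namely for CHAC1 chr15:40953221-40953340 (+), for ATF3 chr1:212565160-212565279 (+), for CHORDC1 chr11:90223044-90223163 (-), for HSPA1B chr6:31827577-31827696 (+) and for GCLM chr1:93909401-93909520 (-).
CHAC1: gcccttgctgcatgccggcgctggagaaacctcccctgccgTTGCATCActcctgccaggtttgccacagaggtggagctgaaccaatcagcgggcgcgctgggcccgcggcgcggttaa
ATF3: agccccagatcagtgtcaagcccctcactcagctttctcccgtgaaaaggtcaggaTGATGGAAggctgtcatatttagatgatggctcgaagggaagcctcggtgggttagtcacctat
CHORDC1: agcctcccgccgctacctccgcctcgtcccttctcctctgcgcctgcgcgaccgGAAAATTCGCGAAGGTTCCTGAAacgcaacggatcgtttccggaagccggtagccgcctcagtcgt
HSPA1B: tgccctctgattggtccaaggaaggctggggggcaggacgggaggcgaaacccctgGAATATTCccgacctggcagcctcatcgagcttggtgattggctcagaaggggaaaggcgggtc
GCLM: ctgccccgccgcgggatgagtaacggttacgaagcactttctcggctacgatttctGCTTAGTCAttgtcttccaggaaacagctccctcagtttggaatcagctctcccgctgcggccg

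Among the 16527 tested genes, 524 rose (3.17%) and 1078 fell (6.52%). Most of the fallen genes had few reads: with 100 or more counts, 263 genes rose (2.35%) and 317 fell (2.84%), while the 5350 genes with fewer reads gave 261 rises and 761 falls. Of the well-counted genes, 14 rose more than 10-fold and 6 fell more than 10-fold, the largest rise being 138-fold and the largest fall 15.9-fold. The median change was 2.45-fold among risen genes and 2.47-fold among fallen ones. Risen genes with 100 or more counts took 2.28% of the control reads and 6.89% of the CPYPP reads, and fallen genes 1.22% and 0.451%.

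**Figure D1:**
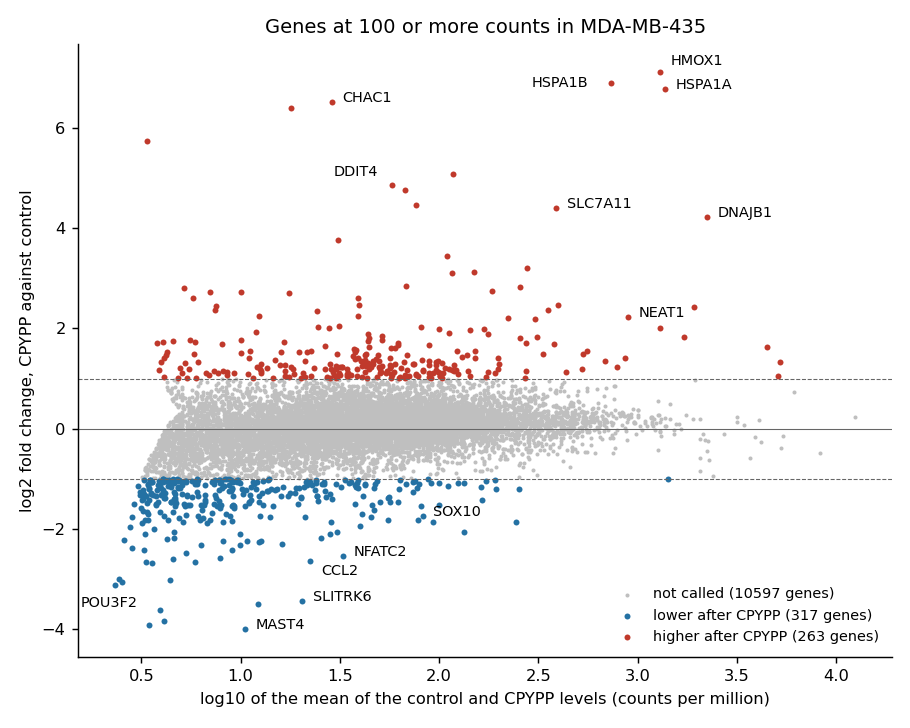
Log2 fold change (vertical axis, CPYPP against control) by mean level (horizontal axis, log10 of CPM) for the 11177 genes at 100 or more counts in MDA-MB-435, 1 point per gene. The 263 red points rose and the 317 blue points fell; rises reach a log2 fold change of 7.11 and falls -3.99.

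The reads of 2 libraries do not show how far cultures differ, so the calls were also made with an assumed coefficient of variation of 0.2 between cultures. Then 124 of the 16527 genes rose (0.75%) and 147 fell (0.889%). With a coefficient of 0.4, 13 rose and 1 fell, the latter being MAST4.

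Apart from EID3 and FBXO30, the 15 protein-coding genes that rose most were members of the lists for the 3 stress programs named above. HMOX1, the heme oxygenase that breaks down heme, had 443 counts in control cells and 47504 after CPYPP, 138-fold higher (95% interval 126 to 152). HSPA1A and HSPA1B, near-identical genes for the inducible HSP70, went from 593 to 50494 and from 294 to 26838 counts, and reads of one can be counted on the other. Their summed counts rose 112-fold. CHAC1, which degrades glutathione, had 15 and 1054 counts, 90.6-fold higher (54.7 to 162). The others of the 15 were ZFAND2A, DDIT4, ATF3, SESN2, SLC7A11, DNAJB1, OSGIN1, GCLM, FBXO30, DNAJB4 and EID3. EID3 had 10 and 654 counts, and its locus (chr12:104303739-104305205) lies inside that of TXNRD1 on the same strand, which itself rose from 14383 to 59957 counts.

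**Figure D2:**
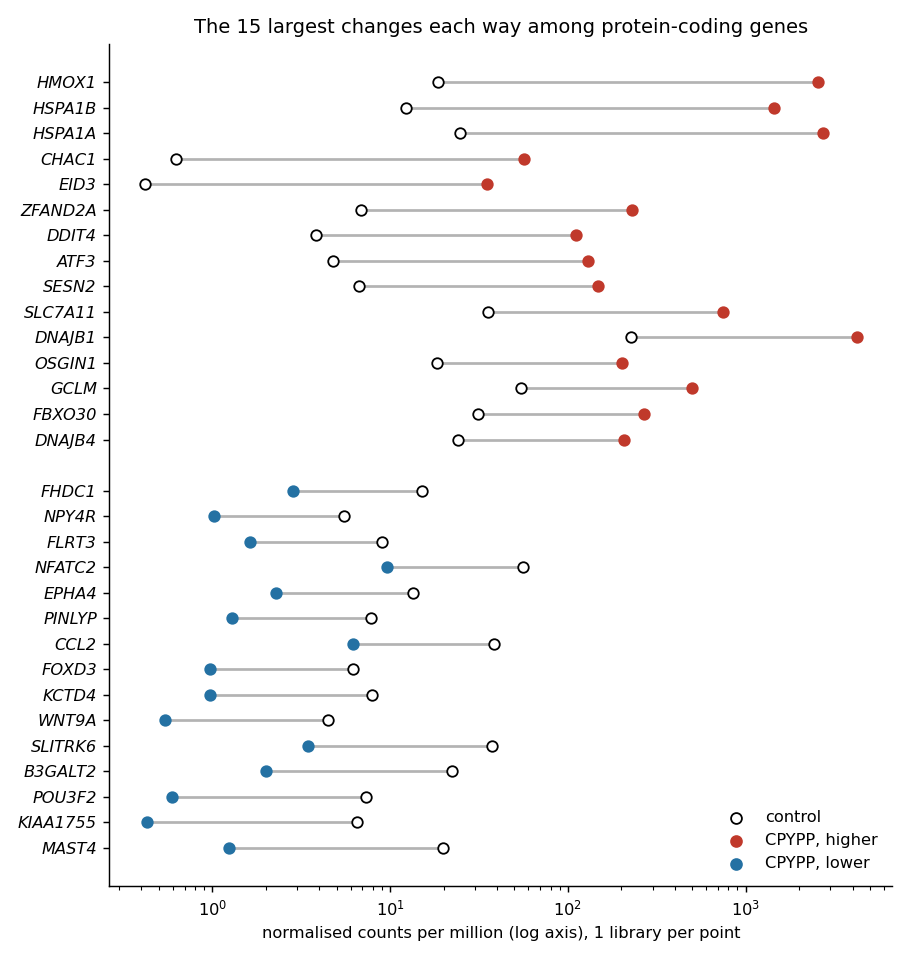
Normalised level in control cells (open circles) and after CPYPP (filled circles), in CPM on a log axis, for the 15 protein-coding genes at 100 or more counts with the largest rise and the 15 with the largest fall. Each point is 1 library; HMOX1 went from 18.6 to 2567 and MAST4 from 19.7 to 1.24 CPM.

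Cytosolic chaperone genes rose in number, with folds from 2.07 for HSP90AB1 to 118 for HSPA1B. Of 30 heat shock chaperones tested, 15 rose (50%, beside 3.17% of all tested genes) and 0 fell. A log2 fold change above 0 was found in 29, with a median of 1.01 against -0.02 over all tested genes. This list and those below were chosen with earlier results of these data known, so their counts and medians are descriptions and not tests. DNAJB1, the HSP40 that hands clients to HSP70, rose 18.6-fold (18.1 to 19.1) from 5430 to 78181 counts. ZFAND2A, an arsenite-inducible proteasome-associated protein, rose 33.6-fold, from 163 to 4242. HSPA6, an HSP70 gene that unstressed cells hardly use, had 1 count in control cells and 67 after CPYPP, an interval of 14.98-fold to 3463-fold. The abundant chaperones rose less in proportion. HSP90AA1 went from 52640 to 125895 counts (3.08-fold), HSPA8 from 71001 to 138526 (2.52-fold) and HSP90AB1 from 79201 to 127380 (2.07-fold), the last losing its call with total counts and upper-quartile scaling. Nucleotide exchange and co-chaperone genes stood between these extremes, with BAG3 5.51-fold, HSPH1 3.997-fold, CHORDC1 3.54-fold and DNAJA1 2.93-fold higher. HSPB1, the small HSP27, had a fold of 1.93 and was not called.

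Other folding and degradation machinery had smaller changes. All 10 chaperonin genes had log2 fold changes above 0, between 0.30 and 0.96, and 0 were called. Of 36 proteasome genes, 34 lay above 0, with a median of 0.40, and only PSMA2 was called, on 33 and 88 counts at a locus that overlaps another gene on the same strand. In the endoplasmic reticulum, 3 of 32 chaperone and unfolded protein response genes rose (9.38%, beside 3.17% of all tested genes). They were XBP1, the spliced factor of that response, 3.90-fold, DNAJB9 3.52-fold and HERPUD1 3.51-fold. HSPA5, the resident HSP70 BiP, had 14382 and 16915 counts, a fold of 1.52 that was not called. The median of this list, 0.11, fell below 0 when libraries were scaled by total counts. Among 32 autophagy genes, GABARAPL1 rose 6.12-fold and SQSTM1, the p62 receptor, 2.65-fold, which was 6.25% of the list.

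Antioxidant genes rose broadly. Of 33 NRF2 targets, 16 rose (48.5%, beside 3.17% of all tested genes) and 0 fell. The median log2 fold change was 0.90, and 32 of the 33 lay above 0. SLC7A11, the cystine importer, went from 845 to 13770 counts, 21.0-fold higher (19.6 to 22.5). GCLM and GCLC, the subunits of the enzyme that limits glutathione synthesis, rose unequally, 9.15-fold (8.63 to 9.70) and 2.31-fold (2.17 to 2.46). TXNRD1, the cytosolic thioredoxin reductase, rose 5.38-fold and SRXN1, which restores peroxiredoxins, 7.19-fold. OSGIN1 rose 10.9-fold and AKR1C1 6.62-fold. Not every classical target passed: NQO1 had 4252 and 5206 counts (1.58-fold), and FTH1 and FTL, the ferritin chains, had folds of 1.80 and 1.82. NFE2L2, which encodes NRF2, had a fold of 1.95. The 8 metallothionein and zinc genes tested, which respond to metals, had 0 calls and a median log2 fold change of -0.42.

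The integrated stress response list had the highest median of the 3 programs, whose lists were chosen with earlier results of these data known. Of 35 genes, 20 rose (57.1%, beside 3.17% of all tested genes) and 0 fell, with a median log2 fold change of 1.26. Feedback and death regulators rose: ATF3 from 114 to 2406 counts (27.2-fold), DDIT3, which encodes CHOP, from 190 to 749 (5.08-fold), TRIB3 3.25-fold and PPP1R15A, the eIF2α phosphatase subunit GADD34, 4.53-fold. DDIT4 and SESN2, which restrain mTORC1, rose 28.96-fold and 21.9-fold. Amino acid genes rose as well, with ASNS, the asparagine synthetase, 6.59-fold, SLC3A2 5.12-fold and SLC7A5 4.63-fold. ATF4 itself went from 6689 to 14544 counts, 2.80-fold. Serine and proline synthesis genes were not called, PHGDH having a log2 fold change of 0.95, PSAT1 0.61, SHMT2 0.50 and PYCR1 0.20. Of 20 cytosolic tRNA synthetases, GARS1 alone was called (2.21-fold), and it lost its call with total counts.

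**Figure D3:**
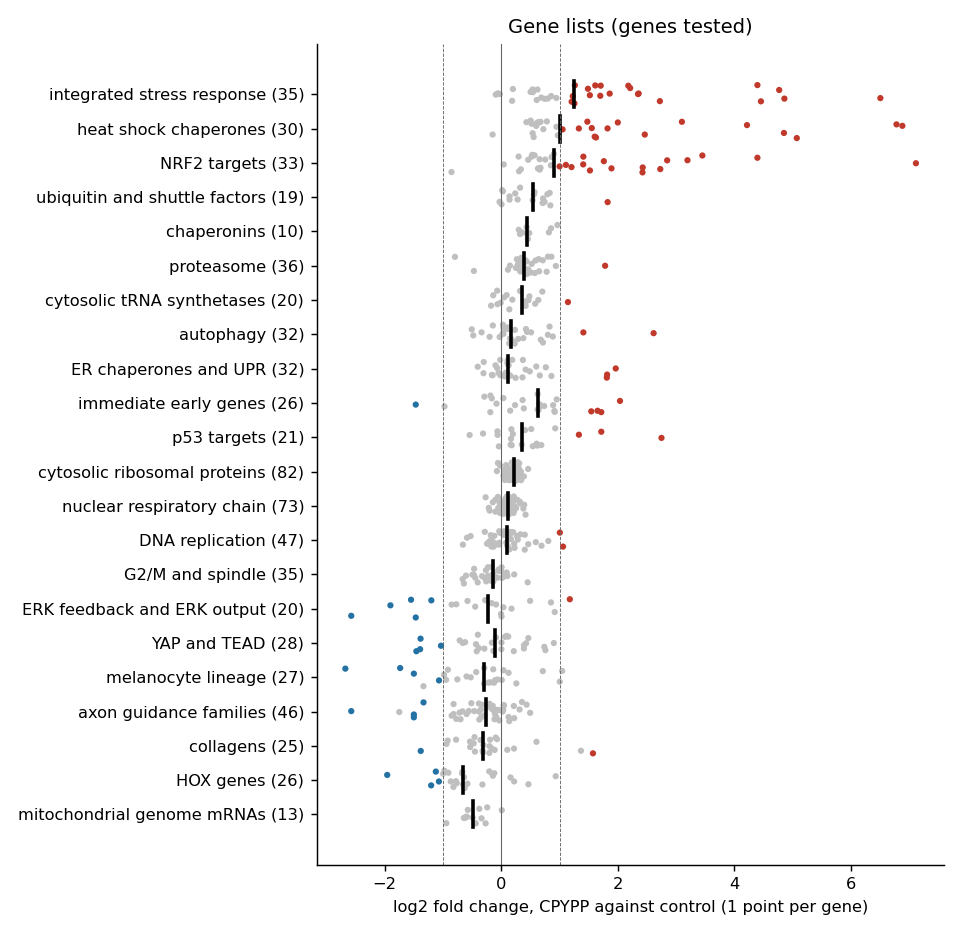
Log2 fold change of each tested gene (points) in 22 gene lists, with the list's median as a black bar; red genes rose, blue genes fell and grey genes were not called. The medians of the integrated stress response, heat shock chaperone and NRF2 lists are 1.26, 1.01 and 0.90, and those of the HOX and mitochondrial mRNA lists are -0.66 and -0.49.

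The elements printed above were counted in 300-base promoters, 250 bases before to 50 after the start, of the 8832 genes with 100 or more counts that had a RefSeq promoter; HMOX1 and SLC7A11 were not among them. Searches covered either strand. The C/EBP-ATF element TGATGNAA was in 12 of 221 risen genes (5.43%), 5 of 207 fallen genes (2.42%), 1.59% of the 8832 and 3.67% of all 27305 promoters, and in 5 of 27 genes of the integrated stress response, CHAC1 and ATF3 included. The antioxidant element TGACNNNGC was in 47 risen genes (21.3%), 31 fallen genes (14.98%), 15.5% of the 8832 and 13.6% of all promoters, and in 6 of 23 NRF2 targets, such as GCLM. Its share was no higher in these NRF2 targets (26.1%) than in heat shock chaperones (7 of 25, 28%) or integrated stress response genes (8 of 27, 29.6%). Heat shock elements of 2 inverted units, GAANNTTC or TTCNNGAA, were in 32 risen genes (14.5%), 23 fallen genes (11.1%), 9.99% of the 8832 and 13.7% of all promoters, and in 11 of 25 heat shock chaperones, including HSPA1A, HSPA1B and ZFAND2A. The 3-unit element GAANNTTCNNGAA or TTCNNGAANNTTC, which contains the 2-unit one, was in 4 risen genes, 0 fallen genes, 0.260% of the 8832 and 0.487% of all promoters, and in 5 of the 25 chaperones. The cAMP response element TGACGTCA was in 11 risen and 6 fallen genes (4.98% and 2.90%), 3.45% of the 8832 and 1.98% of all promoters. These matches are letters in a window and not mapped binding sites.

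Calls among cell cycle and death genes differed by list. Of 21 p53 targets, 3 rose (14.3%, beside 3.17% of all tested genes) and 0 fell. GADD45A rose 6.72-fold from 1136 to 5919 counts, BTG2 3.29-fold and CDKN1A, the p21 inhibitor of cyclin-dependent kinases, 2.52-fold from 898 to 1753. MXD1, a MAX partner that opposes MYC, rose 5.51-fold, and MYC rose 2.26-fold from 1773 to 3107 counts. With CDKN1A they were the 3 rises among 19 genes for G1 cyclins and CDK inhibitors (15.8%), of which 1 fell (5.26%). None of 35 G2/M genes was called, since their log2 fold changes, from -0.66 to 0.45, fell short of the 2-fold threshold. Of these genes 27 had a log2 fold change below 0, and the list's median was -0.14. Of 24 BCL2 family and death receptor genes, 2 rose and 2 fell (8.33% each, beside 3.17% and 6.52% of all tested genes). PMAIP1, the BH3-only protein NOXA, rose 4.71-fold and BCL2L11, which encodes BIM, 2.29-fold. BCL2L1, which encodes the survival protein BCL-XL, fell 2.19-fold from 3626 to 1283 counts, and BMF fell 2.15-fold.

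The kinases and GTPases that the study is about had small changes in RNA. CDK7 had 857 and 869 counts, a log2 fold change of 0.39, and CDK9 1942 and 1350, a log2 fold change of -0.16. RAC1 had a log2 fold change of 0.27. DOCK1 had 1724 and 1341 counts, a log2 fold change of 0.00 (interval of the fold 0.933 to 1.08). Of 18 genes for DOCK, ELMO and RAC proteins, DOCK3 alone was called, on 76 and 21 counts. Of 32 genes for transcription kinases and elongation factors, HEXIM2, an inhibitor of P-TEFb, was the 1 call, on 79 and 25 counts.

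The largest falls were in genes of varied function. MAST4, a microtubule-associated kinase, had 471 counts in control cells and 23 after CPYPP, 15.9-fold lower (10.5 to 25.3). SLITRK6, a neuronal membrane protein, had 892 and 64 counts, 10.8-fold lower (8.38 to 14.2). B3GALT2, a galactosyltransferase, had 535 and 37, 11.2-fold lower, and POU3F2, the BRN2 factor of melanoma and neural cells, 174 and 11, 12.3-fold lower. NFATC2, a calcium-responsive transcription factor, fell 5.83-fold from 1338 to 178 counts and CCL2, a monocyte chemokine, 6.20-fold from 920 to 115. The others of the 15 were KIAA1755, WNT9A, KCTD4, FOXD3, PINLYP, EPHA4, FLRT3, NPY4R and FHDC1, between 5.31-fold and 15.03-fold lower. Among abundant genes, chosen after their values were seen, PLEC, the cytoskeletal linker plectin, went from 45390 to 17540 counts (2.01-fold lower, a call that ended with DESeq2 size factors) and PDP1, a pyruvate dehydrogenase phosphatase, from 9163 to 1961 (3.62-fold).

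Lineage factors of melanocytes and neural crest were among the fallen genes. SOX10 went from 3031 to 707 counts, 3.32-fold lower (3.06 to 3.61), and the crest factor FOXD3 from 148 to 18, 6.38-fold lower (3.90 to 11.1). IRF4, a regulator of pigmentation, fell 2.83-fold from 102 to 28 counts and TFAP2A 2.09-fold from 686 to 254. These were the 4 calls among 27 melanocyte lineage genes (14.8%, beside 6.52% of all tested genes), whose median log2 fold change was -0.29. MITF went from 1405 to 809 counts, a log2 fold change of -0.43 that was not called, and PAX3, DCT and S100B had log2 fold changes of 0.26, -0.14 and -0.10. In MDA-MB-231, TFAP2A also fell, from 355 to 125 counts (2.08-fold). MITF went from 1585 to 690 there (1.68-fold lower, not called), and SOX10, FOXD3 and IRF4 were not tested. Of 26 HOX genes, which set body position, 4 fell (15.4%, beside 6.52% of all tested genes). Log2 fold changes below 0 were found in 22, with a median of -0.66. Only 14 of the 26 had 100 or more counts, and among all tested genes with 10 to 99 counts 14.2% fell. The 4 were HOXD4 (15 and 0 counts), HOXB13, HOXC11 and HOXB5, of which HOXC11 and HOXB5 had over 100 counts. The nuclear receptors NR2F1 and NR2F2 and the factor TFAP2C fell 2.92-fold, 2.12-fold and 2.86-fold. With HOXC11 and TFAP2A they were the 5 of 22 genes that fell under the term anatomical structure development. That share was 22.7%, beside 2.84% of all genes at 100 or more counts.

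Signalling feedback and surface genes fell in part. Of 20 ERK output genes, 5 fell (25%, beside 6.52% of all tested genes) and MYC rose. SPRY2, a feedback inhibitor of receptor tyrosine kinases, went from 2889 to 767 counts (2.92-fold lower), IER3 from 1756 to 493 (2.76-fold), PHLDA1 from 8437 to 2851 (2.30-fold), EPHA4 from 322 to 42 (5.95-fold) and SPRY1 from 77 to 16 (3.73-fold). DUSP6, a core ERK feedback phosphatase, had 612 and 318 counts, a log2 fold change of -0.58 that was not called. Wnt receptors FZD2, FZD4 and FZD8 fell 2.91-fold, 2.72-fold and 2.17-fold, the 3 calls among 26 Wnt genes (11.5%). Of 28 YAP and TEAD genes, AJUBA (2.74-fold), CCN2 (2.62-fold), FJX1 (2.61-fold) and AMOTL2 (2.05-fold) fell, 14.3% of the list, and 0 rose. The laminin gene LAMA2 fell from 79 to 25 counts and the integrin gene ITGA2 from 4303 to 1580, and 4 of 46 axon guidance genes fell (8.70%, beside 6.52% of all tested genes), EPHA4 and SEMA7A (2.83-fold) among them.

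Cytokine genes went in different directions. CXCL8, the neutrophil chemokine interleukin 8, rose 7.04-fold (6.67 to 7.44) from 1520 to 8303 counts, and NFKBIA, the inhibitor of NF-κB, rose 2.45-fold. CCL2 fell, as did IL24 (384 and 70 counts, 4.25-fold) and LIF (1911 and 572, 2.59-fold). Of 23 genes in this list, 4 rose (17.4%, beside 3.17% of all tested genes) and 5 fell (21.7%, beside 6.52%). The median log2 fold change was 0.12. CXCL3 and IL1A rose on 3 counts in control cells and 11 and 10 after CPYPP, and lost the call with total counts. Among 26 immediate early genes, DUSP1 (4.10-fold), BTG2, FOS (3.14-fold) and IER5 (2.92-fold) rose, 15.4% of the list, and IER3 fell. None of 28 interferon-stimulated genes was called.

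Housekeeping machinery gave few calls. None of 82 cytosolic ribosomal protein genes was called, with a median log2 fold change of 0.21 and a range from -0.07 to 0.46. None of 73 nuclear respiratory chain genes, 18 glycolysis genes, 33 ribosome biogenesis genes or 13 mitochondrially encoded mRNAs was called. Of the 13 mitochondrial mRNAs, 12 had log2 fold changes below 0, with a median of -0.49. The 73 nuclear genes of the same chain had a median of 0.11, which fell below 0 with total counts. The mitochondrial ribosomal RNA gene MT-RNR1, chosen after its values were seen, went the other way. It rose 2.56-fold from 9230 to 18332 counts, and 3.86-fold in MDA-MB-231. With an assumed coefficient of variation of 0.2 it lost its call in MDA-MB-435. HMGCS1 (2.26-fold) and INSIG1 (2.08-fold), genes of sterol control, rose among 29 lipid synthesis genes (6.90%, beside 3.17% of all tested genes). INSIG1 lost its call with total counts.

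Annotation terms were read in the same way, over the 686 biological process terms with 20 or more genes at 100 or more counts. Over all genes at 100 or more counts, 2.35% rose and 2.84% fell. The terms with the highest share of risen genes were response to unfolded protein (9 of 36 genes, led by CHAC1, DNAJB1, DNAJB4 and HSPH1) and response to heat (7 of 28). Activation of innate immune response had 4 of 21, namely HSP90AA1, its pseudogene copy, CGAS (2.22-fold) and TBK1 (2.18-fold). CGAS and TBK1, which act in cytosolic DNA sensing, lost their calls with total counts. Among terms with fallen genes, canonical Wnt signaling had 5 of 37 (13.5%), led by WNT9A and FZD2. Protein glycosylation had 8 of 64 (12.5%), led by B3GALT2 but including the pseudogenes ALG1L13P, FAM86JP and FAM86C2P. Protein methylation had 7 of 32, all of them FAM86 or ALG1L13P pseudogenes, near-identical copies among which reads could have been divided.

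A larger share of noncoding than of coding genes was called lower, which is a description of these 2 libraries and was not tested. Of 191 lincRNA genes (long intergenic noncoding RNAs) with 100 or more counts, 49 fell (25.7%) and 3 rose, and of 170 antisense genes 28 fell (16.5%) and 4 rose, whereas 211 of 10377 protein-coding genes fell (2.03%) and 238 rose (2.29%). Noncoding genes were less abundant, with median control counts of 209 for lincRNA and 990 for protein-coding genes, and the part of level in these shares was not tested. Of 69 processed transcripts, 4 fell (5.80%) and 5 rose (7.25%). At 100 or more but under 300 control counts, 33 of 120 lincRNA genes, 25 of 123 antisense genes and 88 of 1621 protein-coding genes fell (27.5%, 20.3% and 5.43%). Rises there were 0, 0 and 43 (2.65%). That range is set by the control count, which also enters the fold, so it does not separate level from change. Together lincRNA and antisense genes made up 77 of the 317 falls (24.3%) and 7 of the 263 rises (2.66%). Named examples were LINC02119 (393 and 61 counts, 5.00-fold lower), BLACAT1 (252 and 39, 5.01-fold), LINC01940 (138 and 17, 6.30-fold), HOXB-AS3 (166 and 28) and HERPUD2-AS1 (100 and 9).

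A few long noncoding RNAs rose instead. NEAT1, the scaffold RNA of nuclear paraspeckles, went from 7484 to 27192 counts, 4.69-fold higher (4.57 to 4.81), and MIR100HG rose 3.76-fold from 1119 to 3264. SLC7A11-AS1 had 2 and 123 counts, an interval of 21.5-fold to 662-fold. It overlaps SLC7A11 on the other strand, and NHSL1-AS1 and LYPLAL1-DT overlap NHSL1 and LYPLAL1. Among genes named above, HOXB5 overlaps HOXB-AS3, SOX10 overlaps POLR2F, B3GALT2 overlaps CDC73, KCTD4 overlaps GTF2F2 and DNAJB1 overlaps TECR in the same way. Whether reads were counted by strand is not given in the sources used here, so reads of such partners cannot be told apart.

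Single-exon coding genes also had a larger share of falls, again as a description without a test. Of 126 protein-coding genes with 1 exon in every annotated transcript, 21 fell (16.7%) and 4 rose, against 190 and 234 of 10251 genes with introns (1.85% and 2.28%). At 100 or more but under 1000 control counts the shares that fell were 18 of 81 (22.2%) and 136 of 5086 (2.67%). Rises there were 2 (2.47%) and 134 (2.63%), and this range too is set by the control count. The single-exon genes that fell included POU3F2, KCTD4, FOXD3, GAS1 (4.28-fold), IRF2BPL (3.37-fold), FANCF (2.92-fold), FZD2 and FZD8. Those that rose were HSPA1B, EID3, IER5 and CEBPB. By genomic span, coding genes were put in 5 groups of nearly equal number, and falls were 81 of 2076 in the shortest group (up to 11633 bases), 41, 19 and 23 of 2075 in the next ones, and 47 of 2076 in the longest (100427 bases or more), where rises were fewest, at 28. The split by exon number was made after the fallen genes had been seen.

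**Figure D4:**
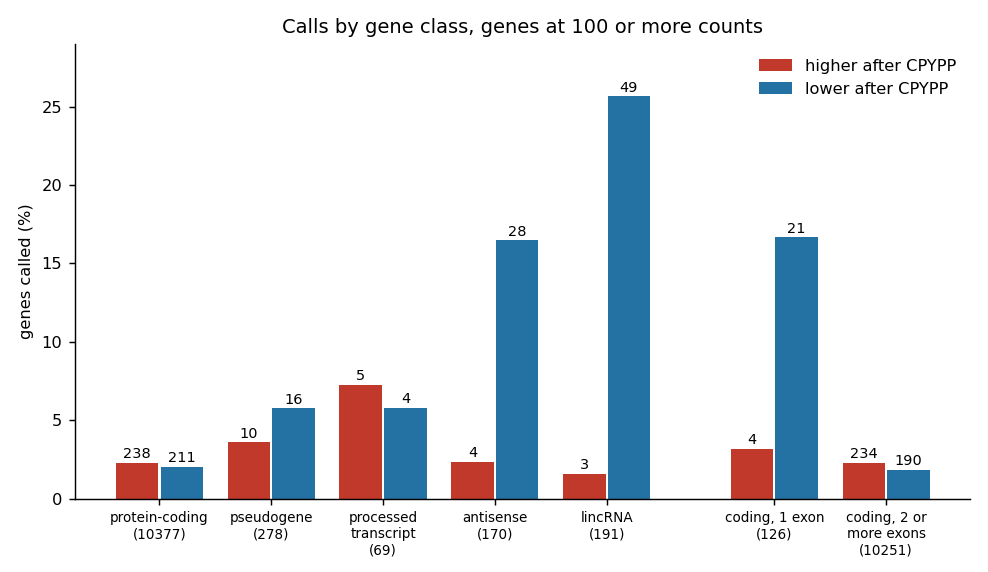
Percentage of genes at 100 or more counts that rose (red) or fell (blue) after CPYPP, by annotated class and, at right, by exon number among protein-coding genes; numbers above bars are genes called and numbers in brackets genes in the class. Falls reach 25.7% of lincRNA genes and 16.7% of single-exon coding genes, against 1.85% of coding genes with introns.

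The MDA-MB-231 libraries gave the response of another line to the same agent, and without replicates no difference between the lines was tested. In MDA-MB-231, 694 of 16441 genes rose (4.22%) and 508 fell (3.09%). Of the 255 risen well-counted MDA-MB-435 genes that were tested there, 88 rose (34.5%) and 0 fell. In the reverse direction, 94 of 198 well-counted MDA-MB-231 rises also rose in MDA-MB-435 (47.5%). Of the 15 largest rises 14 also rose, HMOX1 142-fold, and the exception was DDIT4, with 1186 and 1008 counts. Of 272 MDA-MB-435 falls that were tested in MDA-MB-231, 73 fell there as well (26.8%) and 2 rose. Another 45 had under 10 counts in each of its libraries, SOX10, SLITRK6 and CCL2 among them. Conversely, 67 of 114 well-counted MDA-MB-231 falls also fell in MDA-MB-435 (58.8%). None of the 15 largest MDA-MB-435 falls was called lower in MDA-MB-231, where 7 of them were not tested. The heat shock chaperones gave 15 calls in each line, whereas the integrated stress response list gave 20 rises of 35 in MDA-MB-435 and 10 of 37 in MDA-MB-231, with medians of 1.26 and 0.54.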

How the data were processed

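Poly(A)-selected RNA from MDA-MB-435 cells, control and CPYPP, was sequenced in 1 library each. The values that the authors deposited are unnormalized counts of reads, 1 per gene and library. The submitters' processing notes name cutadapt 1.9.1, HISAT2 2.2.1, HTSeq 0.6.1, DESeq2 and the build GRCh37.p13, but 58196 of 58254 identifiers shared with GENCODE v29 have overlapping GRCh38 positions, so coordinates are read as GRCh38. Biotypes and exon numbers came from GENCODE v29. The growth description names MDA-MB-435 for every sample.

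Counts were analysed with edgeR 4.0.16 (TMM factors 1.05 and 0.950 for control and CPYPP), DESeq2 1.42.0, R 4.3.3, Python 3.11.15 and scipy 1.17.1. Genes with 10 or more counts in 1 library were tested by a two-sided exact binomial test. Counts of 3 or fewer were set to 3 for folds, so such a fold against a count of 0 is a lower bound. At these depths 3 counts are 0.126 and 0.162 CPM, and genes near 10 counts have wide intervals. Intervals cover counting error only. The calls were also run on simulated counts in which 200 genes were changed 4-fold. Those counts carried counting error only, so the simulation cannot show how far calls hold between cultures.

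Genes were named by rule: the 15 largest changes each way among protein-coding genes at 100 or more counts, the 5 largest each way among noncoding genes, up to 4 called members per list and direction, cell type markers and 8 fixed genes; annotation terms by the 8 highest shares each way. Members, lists (57) and rules were chosen with earlier results of these data known. Alternatives covered scaling, filters, thresholds and assumed variation. A few genes are not reported here.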

Additional observations from a re-analysis of the deposited data

Results flagged for a closer look

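CCN2, a matrix protein and YAP target, went in opposite directions in the 2 lines. In MDA-MB-435 it fell from 1001 to 296 counts, a log2 fold change of -1.39 (2.62-fold lower, 95% interval 2.30 to 2.996). In MDA-MB-231 it rose from 4043 to 10575 counts, 3.57-fold (3.44 to 3.70). With an assumed coefficient of variation of 0.2 between cultures, CCN2 lost its call in MDA-MB-435, and MDA-MB-231 was not run at that setting. With 1 library per condition the difference between the lines was not tested. It was the only one of the 145 named genes called higher in 1 line and lower in the other.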

How the results depend on the processing

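Scaling by total counts moved the median log2 fold change of all tested genes by -0.15 and upper-quartile scaling by -0.11. Rises and falls were then 370 and 1487 (19.9% of calls higher, against 32.7%) and 403 and 1365 (22.8%); at 100 or more counts they were 186 and 466 (28.5% higher, against 45.3%) and 201 and 426 (32.1%). Of 57 list medians, 17, 10, 6 and 2 changed sign with total counts, upper quartile, TMM over 4 libraries and DESeq2 size factors. Of 140 called genes named by the rule, 11, 9, 3 and 0 lost the call, and 0 changed direction; of called genes named otherwise, HSP90AB1, CGAS and TBK1 lost it with total counts, HSP90AB1 also with upper quartile, and PLEC with DESeq2 size factors. An assumed coefficient of variation of 0.1 left each count within 1.5 times. With 0.2, counts were 124 and 147 (100 and 91 at 100 or more counts), and with 0.4, 13 and 1 (12 and 1); 73 and 14 of the 140 kept their call. A fold over 4 gave 140 and 237 (42 and 38). Counting intervals wholly past 2-fold gave 230 and 253, and 184 rises and 144 falls at 100 or more counts. Asking 10 or more counts in both libraries left 389 rises and 602 falls. Asking 100 or more in both left 232 rises and 134 falls, so rises then outnumbered falls. A fallen gene with few reads after CPYPP is dropped by such a filter. Protein-coding genes alone gave 342 rises and 476 falls, with 238 rises and 211 falls at 100 or more counts. HSPA1A and HSPA1B summed rose 112-fold, against 109.8-fold for HSPA1A. Depth limits the 5350 genes under 100 counts, which hold 761 of the 1078 falls. No paired analysis was possible because each condition had 1 library and the labels carry no replicate numbers.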
